A study of Mus musculus with 8 samples.

Results

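Transcripts of 9 genes that encode serine/arginine-rich (SR) splicing factors, Srsf1, Srsf2, Srsf3, Srsf4, Srsf5, Srsf6, Srsf7, Srsf10 and Srsf11, and of Clk1, a kinase that phosphorylates these factors, were followed in macrophages during the first 2 h after lipopolysaccharide (LPS). The 10 genes were taken by symbol from the 23143 genes of the table, and all 10 were measured. RAW264.7 cells, a mouse macrophage line, were left untreated (0 min) or received 100 ng/ml LPS, a bacterial cell wall component that activates Toll-like receptor 4, for 15, 30, 45, 60, 75, 90 or 120 min. Each time point is a single RNA-seq library of the same wild-type line. No difference between time points therefore has a replicate check, every test below compares a pair of libraries and not conditions, and intervals cover counting error only. The labels give the RNA fraction as cytoplasmic, whereas the molecule field and the methods of the study name total RNA.

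SR proteins bind exonic sequences through RNA recognition motifs and recruit the splicing machinery through domains rich in arginine and serine. Phosphorylation of these domains by the SRPK kinases directs SR proteins into the nucleus, where the CLK kinases add further phosphates and release them from nuclear speckles to sites of transcription. Many SR genes, and Clk1 itself, limit their own output by splicing to transcripts that are degraded by nonsense-mediated decay or held in the nucleus.

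Transcripts of such kinds are annotated for most of the 10 genes, which records the forms and not their use in these cells. In GENCODE, 9 of the 10 genes have a transcript marked for nonsense-mediated decay, compared with 32.37% of the 7853 protein-coding genes whose mean normalized count reached 1000. The same 9 genes have a transcript with a retained intron, compared with 65.81% of those 7853 genes, and both kinds are annotated together for 26.73% of them. Srsf10 was the gene with neither. The rows of 3 genes, Clk1, Srsf3 and Srsf7, pool coding and non-coding RefSeq accessions, which is so for 2.38% of the 7853 genes. Clk1 has 2 non-coding accessions, and Srsf3 and Srsf7 have 1 each. GENCODE links 1 of the 2 for Clk1 to the coding transcript, so the form it stands for was not read. The exons that switch these 3 genes between the forms that were read are shown because the counts sum over all forms. In Clk1 the switch is exon 4 of 13, 91 bases of coding sequence at chr1:58420121-58420211 (GRCm38, minus strand), which the decay transcript lacks. Its length is not a multiple of 3, so the reading frame shifts when it is skipped. Another 2 annotated Clk1 transcripts keep both introns beside it, as a single exon of 1642 bases at chr1:58419667-58421308. In Srsf3 and Srsf7 the switch is an extra exon that carries an early stop codon. The Srsf3 exon, exon 4 of 7 in the decay transcript, spans chr17:29039454-29039909 (plus strand) and is read for 31 bases before the stop. The Srsf7 exon, exon 4 of 9, spans chr17:80204622-80205081 (minus strand) and is read for 25 bases. Each is given 5′ to 3′, the last 2 only up to the stop codon (chr17:29039454-29039487 and chr17:80205054-80205081), which is in capitals.
Clk1 exon 4: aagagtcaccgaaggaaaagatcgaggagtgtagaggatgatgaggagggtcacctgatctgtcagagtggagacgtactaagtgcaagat
Srsf3 stop-codon exon: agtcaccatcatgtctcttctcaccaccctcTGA
Srsf7 stop-codon exon: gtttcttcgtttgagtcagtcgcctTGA
None of the values below separates these forms, because reads were summed per gene symbol.

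Total counts ranged from 100250892 (75 min) to 159077286 (120 min), and counts were divided by median-of-ratios size factors of 0.71 to 1.23. The ribosomal RNA precursor Rn45s took 8.18% to 9.11% of the counts at 0, 30, 60 and 120 min, and 12.96% to 20.53% at 15, 45, 75 and 90 min, so the libraries fall into 2 kinds that do not follow time. Scaling by total counts instead would lower the log2 ratios to 0 min of all genes by up to 0.33 (75 min). All 7 macrophage markers were detected, with mean normalized counts of 7390 to 432076, and 1 of them, the LPS receptor subunit Cd14, rose (log2 ratio 1.87 at 120 min), against log2 ratios of 0.40 for Ptprc and -0.32 for Lyz2. The 6 markers of T cells, B cells, hepatocytes, fibroblasts, epithelium and endothelium had at most 8 counts in any library. The 5 LPS response genes of the list, Tnf, Il1b, Nfkbia, Dusp1 and Egr1, all rose, with log2 ratios that reached 6.26 for Dusp1 (45 min), 5.34 for Egr1 (45 min) and 11.46 for Il1b (120 min).

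In resting cells the 10 genes had levels from 26.7 to 192 when counts were put per transcript length and per total count (rpkm). Srsf3, which also serves mRNA export, had the highest level at 192 rpkm (exact Poisson 95% interval 191 to 193), followed by Srsf2 at 169 rpkm (168 to 171). Srsf5 at 118 rpkm (117 to 120) and Srsf1 at 117 rpkm (116 to 118) did not differ beyond their counting error. Below them came Srsf7 (111 rpkm), Srsf6 (67.0 rpkm), Srsf11 (49.2 rpkm), Srsf4 (38.2 rpkm), Srsf10 (28.2 rpkm) and Clk1 (26.7 rpkm), each apart from its neighbour by more than the counting error. The order depends on the length used: with the longest annotated transcript, Srsf7 (141 rpkm) stood above Srsf5 (125 rpkm) and Srsf1, and Srsf10 (43.4 rpkm) above Srsf4 (37.2 rpkm). Over all 8 libraries the ranges of most neighbours overlapped, and the steps from Srsf7 to Srsf6, from Srsf6 to Srsf11 and from Srsf11 to Srsf4 were those that did not. The order changed with LPS for Srsf5, which reached 216 rpkm (215 to 218) at 120 min, above Srsf2 (186 rpkm) and Srsf3 (179 rpkm). Clk1 reached 58.6 rpkm at 60 min, level with Srsf11 (58.2 rpkm) in the same library. The length used for Clk1, 1795 unique 58-mers, leaves out any sequence particular to the non-coding accession that was not read. The effect of this on the Clk1 rpkm values was not tested.

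**Figure D1:**
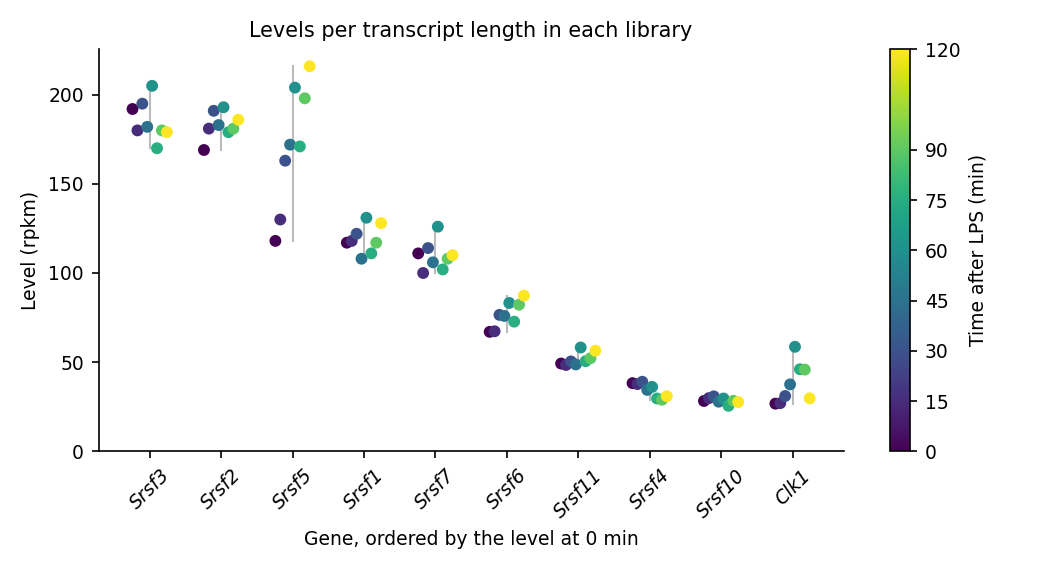
Level of each gene (y axis, rpkm, reads per 1000 unique bases and per 1e6 counts of the library) in the 8 libraries, with genes ordered on the x axis by their level at 0 min; each point is 1 library, coloured by time after LPS, and the grey line is the range. Srsf5 spans 118 to 216 rpkm, Clk1 26.7 to 58.6 rpkm and Srsf3 170 to 205 rpkm.

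Of the 10 genes, Srsf5 and Clk1 were called higher than the untreated library and none was called lower. In bulk RNA a larger number of transcripts per cell and a different mix of cells cannot be told apart. A gene was called when its log2 ratio to 0 min lay beyond 0.5 and the unadjusted p of an exact negative binomial test of the 2 libraries was under 0.05. No member was called at 15 or 30 min, when 0.194% and 0.76% of all genes were called higher. Srsf5 was called at 45 min (background 2.51%), Srsf5 and Clk1 at 60 min (2.3%), 75 min (3.15%) and 90 min (3.84%), and Srsf5 alone at 120 min (5.17%). Over any time point 2 of 10 members were called higher and 0 of 10 lower. The corresponding shares were 6.58% and 5.98% of all 23143 genes, and 10.9% and 7.67% of the 8401 genes whose mean normalized count reached 1000, an abundance that all 10 members reach. Without the log2 limit, at an unadjusted p under 0.05, 0 members were lower too, and the dispersion trends of edgeR and DESeq2 also gave 0. At the abundance of these genes the smallest ratio that could be called was 1.61, so the smaller differences described below were out of reach of the test.

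**Figure D2:**
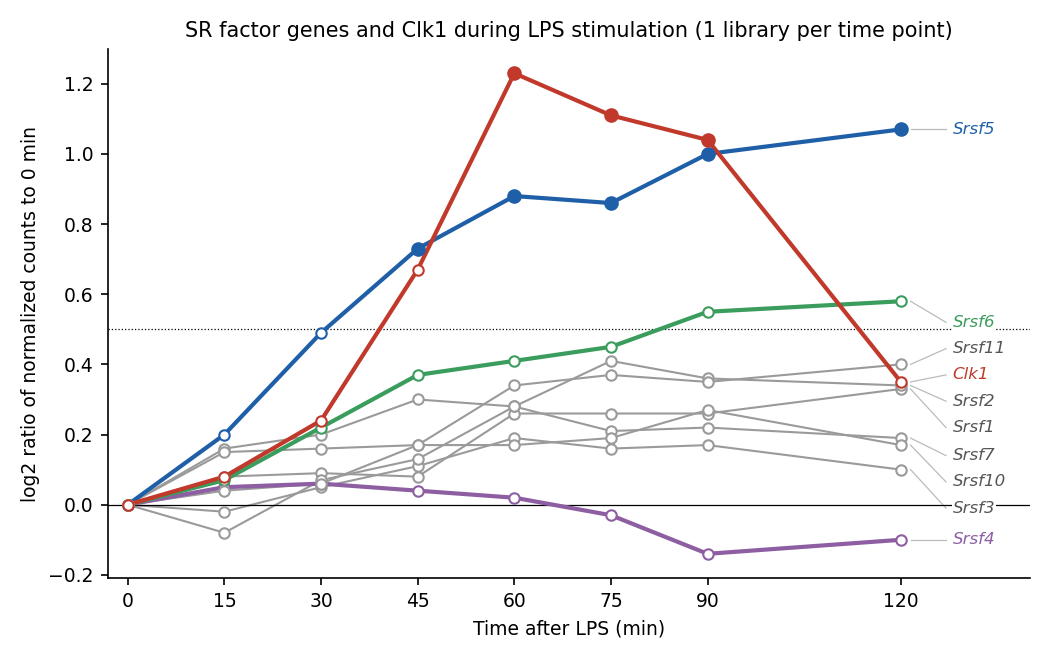
Log2 ratio of normalized counts to 0 min (y axis) against time after LPS in minutes (x axis) for the 10 genes, 1 library per point; filled points were called higher, open points were not called, and the dotted line marks the log2 limit of 0.5. Clk1 (red) peaks at 1.23 at 60 min and is at 0.35 at 120 min, Srsf5 (blue) reaches 1.07 at 120 min, Srsf6 (green) reaches 0.58 without a call, and Srsf4 (purple) ends at -0.10.

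Clk1, the kinase of the set, rose late in the first hour and fell in the second. In order of time, from 0 to 120 min, the 8 libraries had normalized Clk1 counts of 5383, 5689, 6367, 8594, 12589, 11651, 11032 and 6877. The libraries of 60, 75 and 90 min thus stood above all others, and the 120 min library lay between those of 30 and 45 min. Relative to 0 min the ratio was 1.60 (95% interval 1.54 to 1.65) at 45 min, which was not called (p = 0.0562, exact negative binomial test). It was 2.34 (2.27 to 2.41) at 60 min, a log2 ratio of 1.23 (p = 0.000526, exact negative binomial test). From 60 to 120 min Clk1 fell by 0.87 on the log2 scale, to a ratio of 0.546 (0.532 to 0.561), a call in the lower direction that 2.52% of all genes shared. This call was lost with Benjamini-Hochberg adjustment and with a log2 limit of 1. The 120 min library was also called lower than that of 75 min (ratio 0.59), but not lower than that of 90 min (ratio 0.623, 0.605 to 0.642). At 120 min the ratio to 0 min was 1.28 (1.24 to 1.32) and not called. By the pattern rule of the study, which orders called maxima and minima over time, Clk1 had a maximum at 60 min followed by a minimum at 120 min. This put it in the group of mRNAs with a first maximum at or after 60 min and no earlier minimum (g1).

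Other kinases that act on SR proteins gave a mixed picture. Of 12 genes for such kinases and the SR protein importer Tnpo3, 4 were called higher (Clk3, Clk4, Dyrk1b and Dyrk2) and 1 lower (Dyrk3) at any time. The corresponding shares were 6.58% and 5.98% of all genes. With total counts 2 of the 12 were called higher, and with Benjamini-Hochberg adjustment 0 were. Clk4, the closest relative of Clk1, had normalized counts of 2638, 2796, 2731, 3455, 5072, 5283, 5480 and 4149 in order of time. Like Clk1, it was called higher at 60, 75 and 90 min, with log2 ratios of 0.94, 1.0 and 1.05. At 120 min its log2 ratio was 0.65, which was not called, and the decline from 90 min (ratio 0.757, 0.727 to 0.789) was not called either. Clk3 was highest in the last library and was called there alone (log2 ratio 0.75), although 82.66% of its 58-base sequences are unique to it, against 100% for each of the 10 members. Clk2 was not called at any time, with a log2 ratio of -0.27 at 60 min and 0.45 at 120 min. Dyrk3, a kinase that dissolves nuclear speckles and stress granules, fell at 45 and 60 min (log2 ratio -1.5 at 60 min) and was at -0.47, not called, at 120 min. Dyrk1b rose at 45, 60, 90 and 120 min (log2 ratio 1.22 at 45 min) from a mean normalized count of 206, the lowest of the kinases named, and Dyrk2 rose at 120 min (log2 ratio 0.99). Srpk1, Srpk2 and Tnpo3, which act on SR proteins in the cytoplasm, were not called, with log2 ratios of 0.16, -0.42 and 0.18 at 120 min.

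**Figure D3:**
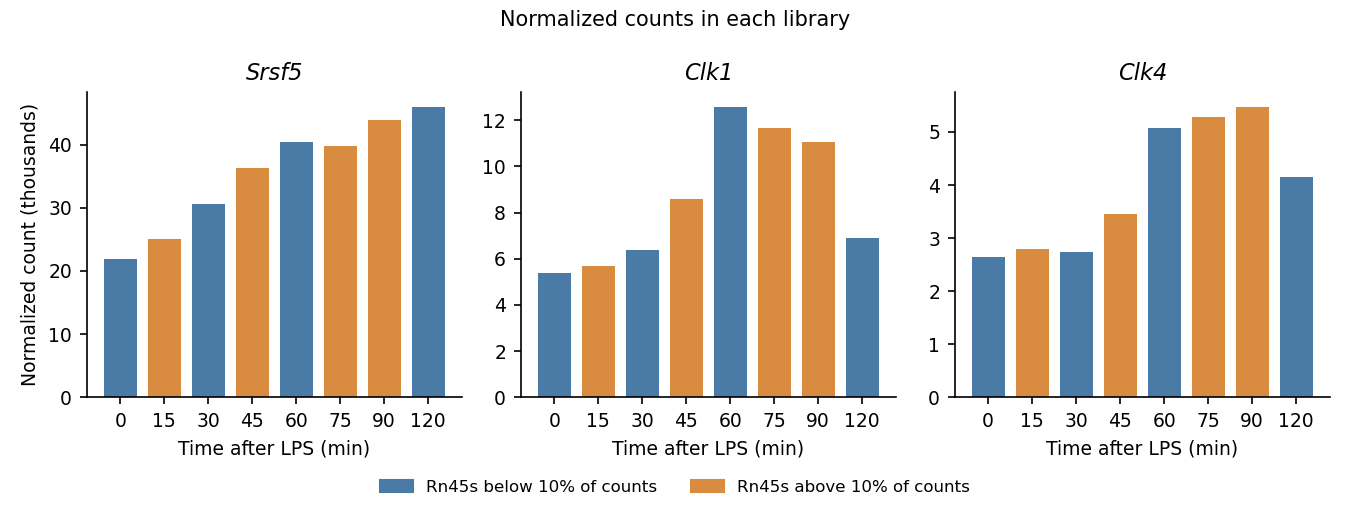
Normalized counts (y axis, in units of 1000, from 0) of Srsf5, Clk1 and Clk4 in each library (x axis, minutes after LPS); bars are single libraries without replicates, blue where Rn45s took under 10% of the counts and orange where it took over 10%. Srsf5 increases through libraries of both kinds, and Clk1 and Clk4 are high at 60, 75 and 90 min in libraries of both kinds.

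Among the SR factors, Srsf4, Srsf5 and Srsf6 are close relatives that carry paired RNA recognition motifs and long arginine/serine domains. Srsf5 had normalized counts of 21913, 25105, 30681, 36278, 40369, 39815, 43967 and 46055 in order of time. All 7 stimulated libraries stood above the untreated one, the values grew from each time point to the next except between 60 and 75 min, and the 120 min library was the highest. The ratio to 0 min was 1.40 (1.38 to 1.42) at 30 min, not called, 1.66 (1.63 to 1.68) at 45 min and 2.10 (2.07 to 2.13) at 120 min (p = 0.00229, exact negative binomial test). Its called maximum at 120 min, the last library, placed Srsf5 in g1 as well. In rpkm, Srsf5 made up 13.3% of the summed levels of the 9 SR factor genes at 0 min and 21.2% at 120 min.

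Srsf6 followed the profile of Srsf5 at a lower amplitude. Its normalized counts were 26075, 27438, 30346, 33601, 34594, 35600, 38305 and 39055 in order of time, so on size factors each library stood above the one before. In rpkm Srsf6 went down from 83.2 at 60 min to 72.7 at 75 min. The ratio at 120 min was 1.5 (1.48 to 1.52), a log2 ratio of 0.58 beyond the limit, but the test did not pass (p = 0.0947, exact negative binomial test). On total counts this log2 ratio was 0.38, under the limit. Over the 8 libraries the log2 values of Srsf5 and Srsf6 correlated with r = 0.992, the closest of the 36 pairs of SR factor genes, a description of a shared trend over time and over libraries that share depth and composition.

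With size factors, Srsf4 was the SR factor gene that ended below the untreated library. Its normalized counts were 9422, 9747, 9807, 9670, 9524, 9197, 8530 and 8772 in the same order, highest at 30 min and lowest at 90 min. No ratio to 0 min was called, and the extremes were 1.04 (1.01 to 1.07) at 30 min and 0.905 (0.878 to 0.933) at 90 min. These differences are smaller than the test could call. The sign of the Srsf4 log2 ratio changed between scales at 15, 45, 60 and 75 min. On size factors its log2 values correlated negatively with those of each of the other 8 SR factor genes (r from -0.711 to -0.469). The 28 pairs without Srsf4 had r from 0.585 to 0.992 (median 0.864). These correlations were not computed on total counts. On that scale at 75 min, Srsf4 (log2 ratio -0.37), Srsf1, Srsf3, Srsf7 and Srsf10 lay below 0, and Srsf2, Srsf5, Srsf6 and Srsf11 above 0. In rpkm the part of Srsf4 in the summed SR factor levels was 4.29% at 0 min and 3.03% at 120 min.

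The 7 SR factor genes other than Srsf5 and Srsf6 kept within ratios of 0.905 to 1.33 of the untreated library, and none was called. In this range 44 of their 49 values lay above the untreated library. Srsf2, a factor that stays in the nucleus, had its highest ratio at 75 min at 1.33 (1.31 to 1.35) and was at 1.26 at 120 min. Srsf1, the founding SR protein of constitutive and alternative splicing, had log2 ratios of 0.08 to 0.09 up to 45 min, of 0.26 at 60, 75 and 90 min and of 0.33 at 120 min. Srsf3 and Srsf7, which both bring spliced mRNA to the export receptor, had their highest log2 ratios at 60 min, at 0.19 and 0.28, and were the 2 genes with negative values at 15 min, at -0.02 and -0.08. Their log2 values correlated with r = 0.975 over the 8 libraries. Srsf10, which turns from activator to splicing repressor when dephosphorylated during heat shock, had log2 ratios of 0.15 to 0.27 at all times. Srsf11, a factor with a single recognition motif that works with U2AF, was at 0.04 at 15 min and 0.40 at 120 min. Summed over the 9 SR factor genes, normalized counts went from 303171 in the untreated library through 376103 at 60 min to 385054 at 120 min (ratio to 0 min 1.27). In rpkm, which includes Rn45s in the total, the sums at 60, 75 and 120 min had ratios of 1.2, 1.02 and 1.15.

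The median log2 ratio of the 10 members was, from 15 to 120 min in order, 0.07, 0.12, 0.17, 0.28, 0.32, 0.31 and 0.33. Over the 10494 genes whose mean normalized count reached 100 the median lay between -0.01 and 0.02 at each of these times. The sign of the small values depends on the scale. With size factors 65 of the 70 member ratios lay above 0, and with total counts 47 did. On total counts the median of the 10494 genes moved to -0.10 at 60 min and -0.21 at 120 min and that of the members to 0.18 and 0.13. This scale moves all genes of a library by the same amount, so it leaves the distance between these medians as it was. Values of Srsf1, Srsf3, Srsf4, Srsf7, Srsf10 and Srsf11 changed sign between scales at 1 or more times, and those of Srsf2, Srsf5, Srsf6 and Clk1 did not at any time.

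Genes for other parts of the splicing machinery were read from lists chosen beside the members. Of 21 other SR and SR-related protein genes, 2 were called higher and none lower. The shares were 6.58% and 5.98% of all genes (10.9% and 7.67% of those whose mean reached 1000). Srrm2, a large scaffold protein of nuclear speckles, was called higher from 45 min on. Its log2 ratio was 1.55 at 45 min, 0.8 at 60 min and 1.57 at 120 min. Rbm25, which acts on the choice of 5′ splice sites, was called at 75 and 120 min (0.72 at both). Pnisr was at 0.68 at 120 min without a call. Of 28 hnRNP genes, whose proteins often oppose SR proteins, 3 were called higher and none lower, against the same background. Among the 3 were Hnrnpd (log2 ratio 0.92 at 75 min) and Hnrnpa3 (0.75 at 75 min). Hnrnpd was called at 45, 75 and 90 min alone, and Hnrnpa3 at 75 min alone. Both had lower log2 ratios, 0.37 and 0.25, in the 60 min library. Counts of hnRNP genes called higher were 2, 3 and 2 at 45, 75 and 90 min, in libraries rich in Rn45s. They were 0 at 60 min and 1 at 120 min, and the part of the kind of library was not tested. None of 34 core spliceosome genes was called in either direction by the exact negative binomial test, 0 passed an unadjusted p under 0.05 alone, and the trends of edgeR and DESeq2 called 0. With genes of a mean normalized count under 10 left out, 2 of them were called higher. Without that filter the log2 ratios at 120 min were 0.61 for Prpf8 and 0.53 for Snrnp200, neither of which was called. At 120 min the median log2 ratio was 0.33 for the members, 0.32 for other SR and SR-related genes, 0.45 for the kinases and importer, 0.31 for hnRNP genes and 0.12 for the core spliceosome. On total counts the first 4 medians stayed above 0 (0.13, 0.12, 0.25 and 0.11) and that of the core spliceosome was -0.09. Over the alternatives 1 to 6 of the other SR and SR-related genes, 0 to 5 of the kinases and 0 to 7 of the hnRNP genes were called higher, the 0 in both cases with Benjamini-Hochberg adjustment.

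**Figure D4:**
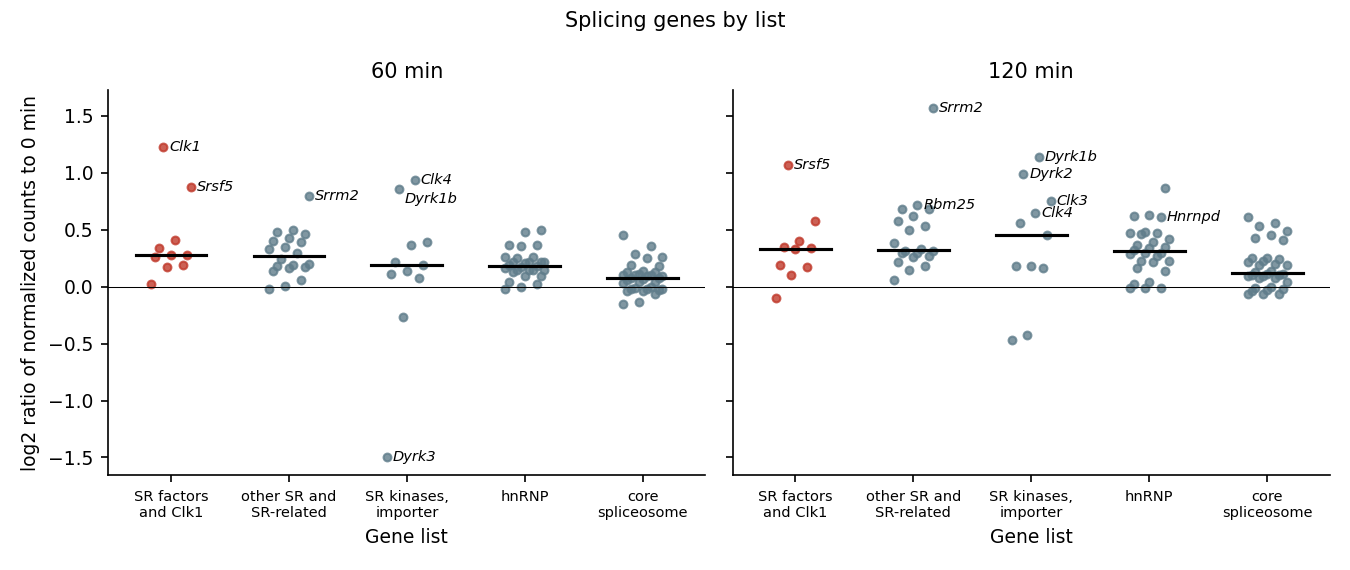
Log2 ratio of normalized counts to 0 min (y axis) at 60 min (left) and 120 min (right) for the members (red) and 4 lists of splicing genes (grey, x axis), genes whose mean normalized count reached 100; each point is a gene in 1 library and the black line is the median of the list. At 60 min Clk1 and Srsf5 stand above the other members, at 120 min Srsf5 does, and the core spliceosome has the lowest median, 0.12 at 120 min (-0.09 on total counts).

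RNAs that stay in the nucleus moved in several of the same libraries. Of the 4 on the list, Malat1 was called higher at 45 and 90 min (log2 ratios 0.98 and 0.80). At the other times from 15 min on, Malat1 had log2 ratios of 0.51 to 0.56. Kcnq1ot1 was called from 30 min on (1.72 at 120 min), and Xist had at most 7 counts. Neat1 was not called, with log2 ratios of 0.35, 0.2, 0.68, 0.47, 0.54, 0.54 and -0.04 from 15 to 120 min in order, so its highest value was at 45 min. The part of nuclear RNA in the values of Clk1 and Srsf5 was not tested. Within the 4 libraries rich in Rn45s, compared with that of 15 min, Clk1 was called higher at 75 and 90 min (log2 ratios 1.03 and 0.96) but not at 45 min (0.60). On the same comparison Srsf5 was called at 90 min (0.81) and not at 45 or 75 min (0.53 and 0.67). With the 4 libraries of 0, 30, 60 and 120 min alone, both genes kept their g1 pattern, as they did when any 1 stimulated library was left out. The call of Srsf5 at 120 min held under each alternative run at that time, and that of Clk1 at 60 min did as well.

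The genes whose log2 profile over the 8 libraries was most like that of Clk1, among the 10494 genes and with Clk1 itself left out, were Ptger4, a prostaglandin E2 receptor (r = 0.983), Fbxo34 (0.980), Zfp420 (0.979), 1810013L24Rik (0.977) and Chka, a choline kinase (0.974). Ptger4 had its highest log2 ratio, 1.6, at 75 min and was at 0.21 at 120 min, and Chka reached 2.00 at 60 min and was at 0.75 at 120 min. Clk4 stood at rank 69 of 10493 genes (r = 0.918), and of the SR factor genes Srsf3 had the highest value (r = 0.957). With those 9 genes left out, the mean profile of the 9 SR factor genes was most like those of Nabp1 (r = 0.995), Phf20l1 (0.993), and Pydc3, Ythdc2 and Sowahc (0.992 each). These correlations describe 8 libraries that follow each other in time and share their depth and composition among genes.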

How the data were processed

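The 10 genes and the gene lists were chosen with earlier results of these data known. The authors deposited raw counts per gene symbol, 1 library per time point, after removing ribosomal RNA. Per the methods of the study, Bowtie placed the 58-base reads on RefSeq transcripts (mm10, which is GRCm38) with at most 2 mismatches, and reads matching more than 1 gene were discarded. Its version, and whether counting used strand, is not given in the sources used here. The submitters' processing notes name CASAVA 1.8.2 and DESeq 1.10.1. From the counts, median-of-ratios size factors, a dispersion of 0.0287 plus 0.853 per mean count fitted with the 8 libraries taken as replicates, and exact negative binomial tests with the doubled smaller tail were computed for all 28 pairs of libraries (Python 3.11.15, numpy 2.4.6, scipy 1.17.1). With 1 library per time, single pairs leave nothing for a quasi-likelihood test to estimate spread from, and a trend over time was not fitted. The code was tested on simulated data. Alternatives used edgeR 4.0.16 and DESeq2 1.42.0 in R 4.3.3. Rpkm used unique 58-mers of GENCODE vM21 transcripts matched by RefSeq accession, and total counts that include Rn45s. Of 3 Srsf11 accessions 1 was unmatched, and 1 non-coding Clk1 accession was matched to the coding transcript. Ratios carry exact binomial and rpkm values exact Poisson 95% intervals. Likeness is Pearson's r of log2(normalized count + 1). Named were all members, the 3 genes of each list with the largest log2 ratio at any time and a mean of at least 100, the 5 genes most like Clk1 and the SR factor mean, Rn45s, Malat1 and Neat1. Clk2, Clk3, Dyrk2, Srpk1, Srpk2, Tnpo3, Tnf, Nfkbia and Xist were named after their values were seen. Spike-in transcripts were not used here, and 2 genes that the rule names are not reported here.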

Additional observations from a re-analysis of the deposited data

How the results depend on the processing

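The calls of Srsf5 and Clk1 depended on the settings at single time points. Lower calls of members were 0 under the alternatives run for lower calls (scale, dispersion, adjustment, log2 limit, low counts, length trend, reference). In the main setting 7.67% of the 8401 genes whose mean normalized count reached 1000 were called lower. The smallest ratio that could be called at the abundance of the members was 1.61, so these counts of 0 say little about smaller falls. The 2 members with a called pattern (Srsf5 and Clk1, both g1) had it under the alternatives run for patterns (scale, dispersion, adjustment, log2 limit, low counts, 0, 30, 60 and 120 min alone), and 2 to 2 members with each stimulated library left out. At 45 min, 1 member was called higher. There 0 members were called with total counts, total counts without Rn45s, the edgeR dispersion trend, Benjamini-Hochberg adjustment, a log2 limit of 1 or the 15 min library as reference, and 2 with the DESeq2 trend, the length trend removed or genes with a mean of at least 10 alone. At 60 min, 1 of the 2 calls (Clk1) was left with total counts, adjustment or a limit of 1. At 75 min, 0 were left with total counts or adjustment, and 1 (Clk1) with total counts without Rn45s, the edgeR trend, a limit of 1 or the 15 min reference. At 90 min, 0 were left with total counts or adjustment. The fall of Clk1 from 60 to 120 min, a comparison whose alternatives were added after seeing the data, was -0.87 but no longer called with adjustment or a limit of 1. The causes were not tested. The log2 ratios ranged over scales from 1.13 to 1.28 for Clk1 at 60 min and from 0.87 to 1.16 for Srsf5 at 120 min. With the longest annotated transcript as length, 9 of 10 rpkm levels moved and the order changed (Srsf10 to 43.4 rpkm, above Srsf4). Over all genes, 1196 were called higher and 1049 lower at 120 min, but 677 and 1250 with total counts. No paired analysis was possible because each time point has 1 library. The lowest count of any member was 5978 (Clk1 at 15 min), and no library has a replicate.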
